A study of Mus musculus with 2 samples.

Results

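The 4 nuclear factor I genes of the mouse, Nfia, Nfib, Nfic and Nfix, were followed across the cell types of dissociated embryos. They are 4 of the 21937 gene features of the deposited matrices, and each symbol named 1 feature. The genes were chosen by their unique molecular identifier (UMI) levels per cell type in founder embryos against embryos of the F1 generation, so their values in that contrast are given as a description, with no p-value and with nothing read from how many of them were called.

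The study delivered a transgene with the piggyBac transposon and asked how uniformly it was carried by the cells of an embryo. All embryos were taken at E11.5 and carried EGFP under CAG, a promoter active in most tissues, linked to a DNA barcode. The founder suspensions F0_8 and F0_9 each came from 1 embryo in which the transgene had integrated anew, after electroporation of fertilised eggs (C57BL/6J by the study's general methods) with mRNA of the transposase mPBase and injection of the donor DNA into the pronucleus. F1_1 came from 1 embryo of the next generation, which had inherited the transgene, and F1_mix was made by mixing the cells of 2 F1 embryos and counts as 1 sample. The sources used here do not state the strain of the F1 embryos, and no embryo without the transgene was in the pool. Founders and F1 embryos thus differed in generation, in the manipulation of the egg and in the embryo itself, and these cannot be told apart. The 4 suspensions were dissociated with trypsin, tagged with separate multiplexing oligos, sorted only against debris and run as 1 library.

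NFI proteins are transcription factors that bind DNA as dimers, at a palindrome built from 2 copies of a short core. Nfia and Nfib are best known for the switch of neural progenitors from making neurons to making glia, for the differentiation of late-born neurons in brain and spinal cord, and, in the case of Nfib, for lung maturation. Nfix acts in the developing brain and in fetal muscle, and Nfic is known for its role in tooth root formation.

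By the RefSeq annotation of GRCm38.p6, the build of the matrices, Nfia (ENSMUSG00000028565) spans 540.8 kb of chromosome 4 from 97578066 to 98118876, and Nfib (ENSMUSG00000008575) spans 216.6 kb of the same chromosome from 82290173 to 82506751. Nfic (ENSMUSG00000055053) lies on chromosome 10 from 81396191 to 81431919 and covers 35.7 kb. Nfix (ENSMUSG00000001911) lies on chromosome 8 from 84704712 to 84801238 and covers 96.5 kb. Promoter sequences of the same build, taken from RefSeq, were at hand for 6 starts of 3 of the genes (1 of Nfia, 1 of Nfic and 4 of Nfix) and were searched on both strands for the letters NFI proteins bind, because NFI factors can bind the promoters of other genes of the family. The full palindrome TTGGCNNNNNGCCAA was in 0 of these 6 promoters and in 0.0365% of all 32851 promoters. Its core TTGGC was in 3 of the 6, all of Nfix, and in 46.7% of all promoters. The 3 stretches of Nfix that hold the core are shown on the minus strand, with the core or its complement in capitals, and lie at chr8:84775989-84776013, chr8:84773368-84773392 and chr8:84772862-84772886. A match is a description of letters and not a bound site.
Nfix, core 175 bases before its start: atcttttgttTTGGCtcaccccagg
Nfix, core 28 bases after its start: gaatcaggcgTTGGCtttgccgggt
Nfix, 2 cores, the first 5 bases before its start: ggggcaGCCAAacaTTGGCcagtcc

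In total 5678 cells were used, 1310 to 1599 per suspension, with 16052917 to 19160116 gene UMIs per suspension and a median of 10880 to 13267 per cell, and 0 barcodes were shared between suspensions. Cell types are those of the authors' table. Of its 16 types, 12 had a median of 10898 to 29076 gene UMIs per cell and are called deep here. The other 4 (Hepatocyte, Foregut, Midgut and Endodermal Progenitor) had a median of 721.5 to 1674 with 23% to 55.9% mitochondrial UMIs and are called shallow. By the study's methods, cells with 5% or more mitochondrial transcripts had been removed, a limit that these 4 types do not match. The study also left these types, among others, out of its mosaicism analysis for weak transgene expression. The shallow types went against their labels: the summed level of 4 liver markers was 0.061 per 10000 UMIs outside mitochondrial genes in Hepatocyte against 13.7 in Ependymal Cell, and that of 4 gut endoderm markers was 0 in Midgut. Neuroectoderm/Glia also went against its label, since 4 glial markers summed to 0.256 there against 15.0 in Neuronal Progenitor, and 4 neuronal markers stood at 81.1, above the 64.8 of CNS Neuron. These 5 names are used below only as labels. The other deep types held the highest or the second highest level of their own markers among the deep types. Hematoendothelial Progenitor/Endothelium also held the highest summed level of 4 macrophage markers among the deep types. It was 33.2, beside 6.09 for the 4 markers of the type itself. Macrophages had no annotated type, and their part in this type was not tested.

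Levels are UMIs of a gene per 10000 gene UMIs, summed over the cells of a type in a suspension, in which fewer cells with the transcript and less transcript per cell cannot be told apart. Counts of 3′ ends are not scaled to length, so levels are compared between cell types and suspensions and not between genes. The order of the cell types is a description, because the types came from clustering of the same cells. Nfia, Nfib and Nfic were lowest in Erythroblast and Erythrocyte, while Nfix in Erythrocyte was in the middle of its order.

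**Figure D1:**
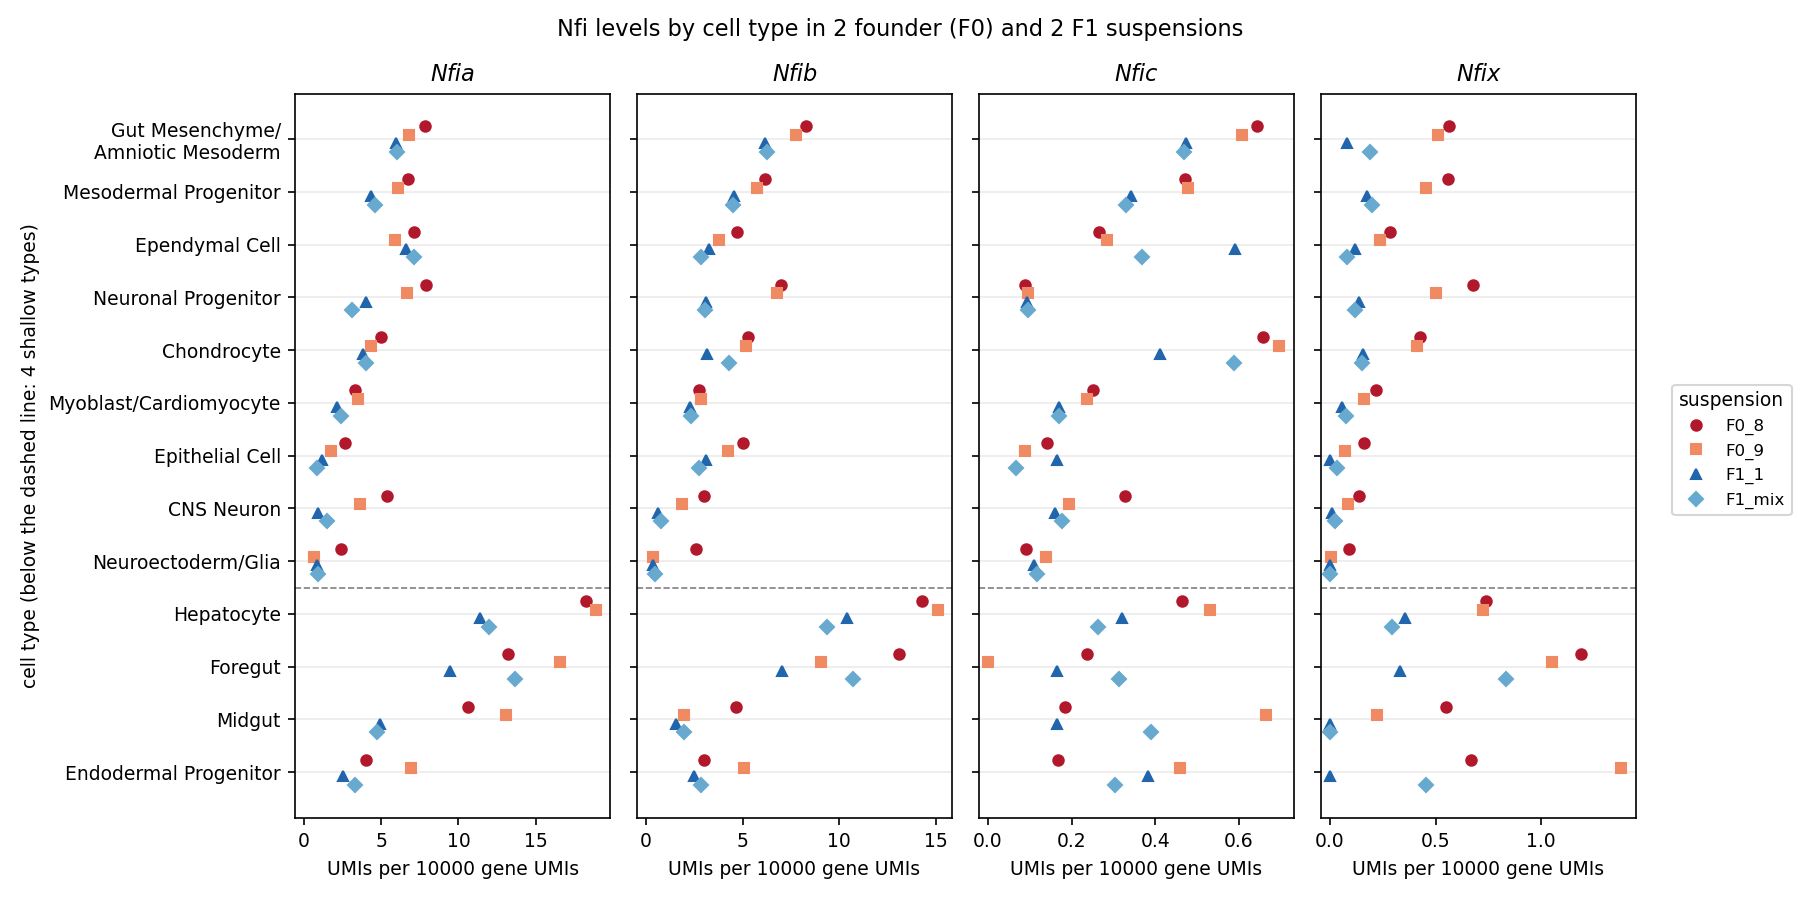
Levels of the 4 Nfi genes on the x axes (UMIs per 10000 gene UMIs, with a separate scale for each gene) in the 13 cell types that held at least 20 cells per suspension, sorted within the deep and the shallow types by the summed level. Each point is 1 suspension, red for the founders and blue for F1. In Neuronal Progenitor the founders stand at 7.92 and 6.64 for Nfia against 4 and 3.12 in F1, while for Nfic all 4 points lie between 0.0886 and 0.0963.

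Nfia had its highest mean level among the deep types in Ependymal Cell, at 6.68 ± 0.606 (SD, n = 4 suspensions), and in Gut Mesenchyme/Amniotic Mesoderm, at 6.64 ± 0.877, and these neighbours did not differ beyond their spread. Gut Mesenchyme/Amniotic Mesoderm lay above the next type in 4 of 4 suspensions. Mesodermal Progenitor (5.42 ± 1.16), Neuronal Progenitor (5.42 ± 2.24) and Chondrocyte (4.29 ± 0.506) followed and overlapped with one another. Their spread includes that between founders and F1, and within each suspension Mesodermal Progenitor lay above Chondrocyte. CNS Neuron (2.84 ± 2.06) and Myoblast/Cardiomyocyte (2.83 ± 0.66) came next, again without a difference beyond the spread. Below them stood Epithelial Cell (1.61 ± 0.806), Hematoendothelial Progenitor/Endothelium (1.32 ± 0.563) and Neuroectoderm/Glia (1.18 ± 0.802), which overlapped. Erythroblast (0.241 ± 0.199) and Erythrocyte (0.064 ± 0.0238) held little of the transcript.

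Nfib followed a similar order with a separate top. Gut Mesenchyme/Amniotic Mesoderm stood first at 7.11 ± 1.08 and lay above Mesodermal Progenitor (5.25 ± 0.842) in 4 of 4 suspensions. Neuronal Progenitor (4.99 ± 2.19), Chondrocyte (4.49 ± 0.979), Epithelial Cell (3.78 ± 1.05) and Ependymal Cell (3.64 ± 0.814) formed a run in which no neighbours were separated by more than their spread. This spread includes that between founders and F1, and within suspensions Chondrocyte lay above Epithelial Cell in 4 of 4. Nfib in Epithelial Cell was thus in the middle of the order, whereas Nfia was near its lower end there. Myoblast/Cardiomyocyte (2.55 ± 0.286), CNS Neuron (1.56 ± 1.11), Hematoendothelial Progenitor/Endothelium (1.19 ± 0.563) and Neuroectoderm/Glia (0.942 ± 1.1) were lower. Erythroblast (0.139 ± 0.111) and Erythrocyte (0.0588 ± 0.0261) were again last.

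Nfic was highest in skeletal and mesenchymal types and in Hematoendothelial Progenitor/Endothelium. The last of these also held macrophage markers, so its level is not read as that of vascular cells alone. Chondrocyte stood at 0.588 ± 0.127, Gut Mesenchyme/Amniotic Mesoderm at 0.547 ± 0.0903, Hematoendothelial Progenitor/Endothelium at 0.501 ± 0.12 and Mesodermal Progenitor at 0.405 ± 0.081, and neighbours in this run did not differ beyond their spread. Ependymal Cell (0.377 ± 0.15) lay above CNS Neuron (0.215 ± 0.0763) in 3 of 4 suspensions, and Myoblast/Cardiomyocyte (0.207 ± 0.0431) lay level with CNS Neuron. Epithelial Cell and Neuroectoderm/Glia both had 0.115, and Neuronal Progenitor was below them at 0.093 ± 0.00334, the lowest of the deep types outside the blood. Nfic thus stood low in the neural progenitors in which Nfia and Nfib were among their higher levels.

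Nfix was sparse, and no neighbours in its order of deep types differed beyond their spread over the suspensions, which includes that between founders and F1. Within suspensions, Ependymal Cell lay above Myoblast/Cardiomyocyte in 4 of 4. Neuronal Progenitor (0.359 ± 0.276), Mesodermal Progenitor (0.347 ± 0.19), Gut Mesenchyme/Amniotic Mesoderm (0.335 ± 0.238) and Chondrocyte (0.285 ± 0.154) led. Erythrocyte followed at 0.216 ± 0.261, from 14, 10, 0 and 4 UMIs in F0_8, F0_9, F1_1 and F1_mix. Ependymal Cell had 0.18 ± 0.096, Myoblast/Cardiomyocyte 0.128 ± 0.0746, and Erythroblast 0.0722 ± 0.0225. Epithelial Cell (0.0659 ± 0.0693), CNS Neuron (0.0626 ± 0.0587), Hematoendothelial Progenitor/Endothelium (0.0597 ± 0.0303) and Neuroectoderm/Glia (0.0243 ± 0.0448) were lowest.

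In the shallow types the levels of Nfia ranged from 4.18 ± 1.92 in Endodermal Progenitor and 8.33 ± 4.17 in Midgut to 13.2 ± 2.94 in Foregut and 15.2 ± 3.99 in Hepatocyte. Nfib ran from 2.54 ± 1.43 in Midgut and 3.36 ± 1.16 in Endodermal Progenitor to 9.98 ± 2.55 in Foregut and 12.3 ± 2.85 in Hepatocyte. Nfic lay between 0.179 in Foregut and 0.395 in Hepatocyte, and Nfix between 0.193 in Midgut and 0.852 in Foregut. Barcodes with 100 to 300 gene UMIs outside the suspensions, which hold free RNA and debris, had 10.1 for Nfia, 8.32 for Nfib, 0.29 for Nfic and 0.411 for Nfix. Barcodes with fewer than 100 had 3.61, 3.19, 0.177 and 0.217. The Nfia levels of single suspensions lay between 2.49 and 18.9 in the shallow types, below and above these values, and their place shifted with the mitochondrial share: in Midgut they were 10.6, 13.1, 4.89 and 4.75 of all gene UMIs but 15.2, 18.4, 6.47 and 5.83 of those outside mitochondrial genes, where the barcodes with 100 to 300 had 10.4. The part of free RNA in the shallow types was not tested.

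Most cells held at least 1 Nfi transcript. After each cell was thinned to 5000 gene UMIs, which left out 438, 255, 372 and 320 shallower cells of F0_8, F0_9, F1_1 and F1_mix, a UMI of any of the 4 genes was in 73.4% of the cells of the deep types (exact 95% interval 72% to 74.7%, n = 4252), against 84.5% unthinned. The share was 97% in Gut Mesenchyme/Amniotic Mesoderm, 95.8% in Mesodermal Progenitor, 90.5% in Chondrocyte and 89.6% in Ependymal Cell. It was 83.2% in Neuronal Progenitor, 50.5% in CNS Neuron and 31.3% in Neuroectoderm/Glia. In red blood cells, taken as a gauge of free RNA, it was 9.15% in Erythroblast and 20% in Erythrocyte. Intervals cover counting error only. The median depth before thinning was 14231 gene UMIs over the deep types, 29142 in Erythroblast and 24289 in Erythrocyte.

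By gene, the thinned share over the deep types was 55.8% for Nfia, 57.1% for Nfib, 11.8% for Nfic and 8.8% for Nfix. Nfia was in 86.1% of the cells of Gut Mesenchyme/Amniotic Mesoderm against 3.52% of Erythroblast, and Nfib in 87.3% against 2.82%. In Erythrocyte the shares were 3.33% for Nfia and 8.33% for Nfib. Nfic was in 26.7% of Hematoendothelial Progenitor/Endothelium, 25.9% of Chondrocyte and 3.23% of Neuronal Progenitor. It was in 0 of 142 cells in Erythroblast, with an exact upper limit of 2.56%, and in 0 of 60 in Erythrocyte, with 5.96%. The interval of the share in Neuronal Progenitor, 1.95% to 4.99%, overlapped that of each red blood cell type. The Nfic level of Neuronal Progenitor, 0.093, lay above the 0.0237 of Erythroblast in 4 of 4 suspensions, a gap beyond their spread. Nfix was in 16% of Gut Mesenchyme/Amniotic Mesoderm, 15.4% of Mesodermal Progenitor and 12.7% of Neuronal Progenitor. The red blood cells held Nfix in 3.52% (Erythroblast) and 10% (Erythrocyte) of cells. As a gauge of free RNA they are weakest for Nfix, since Erythrocyte of F0_8 had a level of 0.589 (0.322 to 0.989) against 0.217 in the barcodes with fewer than 100 gene UMIs. The shares of 2.72% in CNS Neuron, 2.67% in Hematoendothelial Progenitor/Endothelium, 2% in Epithelial Cell and 0.613% in Neuroectoderm/Glia were below both shares and are not read as expression, and those of 8.89% in Ependymal Cell and 5.31% in Myoblast/Cardiomyocyte lay between them.

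Nfia and Nfib tended to be found in the same cells. At 5000 UMIs per cell, cells of a deep type and suspension with a Nfia UMI held Nfib more often than cells without one in 28 of 32 combinations that had 10 or more cells on each side. In Neuronal Progenitor, Nfib was in 86.1%, 91.8%, 71.1% and 70.3% of the Nfia-bearing cells of F0_8, F0_9, F1_1 and F1_mix, and in 57.7%, 48.6%, 46.6% and 45.3% of the others. In CNS Neuron the same shares were 53%, 42.4%, 50% and 27.8% against 24.1%, 30.3%, 10% and 9.52%. For Nfia with Nfix it was 21 of 32, with 5 further combinations at 0% on both sides. Nfix in Neuronal Progenitor was in 27%, 20.6%, 7.78% and 3.3% of the Nfia-bearing cells and in 3.85%, 2.7%, 0% and 1.33% of the others. In Mesodermal Progenitor of F0_8 it was the other way, at 23.1% against 38.5%. The 4 combinations against the trend for Nfia and Nfib were in Chondrocyte of F1_1, in Gut Mesenchyme/Amniotic Mesoderm and Mesodermal Progenitor of F0_8, and in Myoblast/Cardiomyocyte of F0_9. Cells of 1 suspension share an embryo, so these shares are a description.

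Over the 12 deep types the log2 levels of Nfia and Nfib had a Pearson correlation of 0.96. Nfic correlated with Nfia at 0.75 and with Nfib at 0.72, and Nfix with Nfia, Nfib and Nfic at 0.44, 0.46 and 0.30. Points in these correlations share 1 library and differ in depth, and the red blood cells are low for Nfia, Nfib and Nfic. The genes named next were ranked by this measure and say nothing of shared function. Of 6906 genes compared over the 12 types, the patterns most like Nfia were those of Cep112 (0.972), Pcca (0.963), Mpdz (0.960), Zc3h12b (0.957) and Pmepa1 (0.957), and those most like Nfib were Mpdz (0.987), Smo (0.980), Tmem98 (0.972), Map2k6 (0.971) and Id2 (0.969). For Nfic they were Tmlhe (0.949), Ldlrad4 (0.931), Slc50a1 (0.928), Selenom (0.927) and Tmem176b (0.925). For Nfix they were Ndnf (0.805), Vcam1 (0.786), Ptx3 (0.757), Mrc2 (0.755) and Sfrp2 (0.745), lower values than for the other members. The lists depended on the measure: with Spearman correlations 3 of the 20 genes were kept.

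Founders against F1 was the contrast that chose the genes. Over the 13 cell types that held at least 20 cells per suspension, both founder levels lay above both F1 levels in 40 of the 52 combinations of gene and cell type, below both in 1, and overlapped in 11. Over all 99241 combinations that passed the filter on low counts, both founders lay above in 20.8% and below in 19.8%. Among the Nfi combinations that passed this filter, both founders lay above in 35 of 43. Without the filter the count was 13 of 13 for Nfix, against 8 of 8 with it. The 13 include 3 types (CNS Neuron, Epithelial Cell and Neuroectoderm/Glia) whose share of Nfix-bearing cells was below that of the red blood cells. They also include 2 types (Neuroectoderm/Glia and Midgut) in which 1 UMI in F0_9 stood against 0 in F1. That difference is not told apart from 0 at this depth. The count without the filter was 11 of 13 for Nfib, 10 of 13 for Nfia and 6 of 13 for Nfic. The median log2 ratio of founders to F1 was 0.67 for Nfia, 0.58 for Nfib and 0.41 for Nfic. For Nfix it was 1.5 over 11 types and 1.47 with the other 2 types, whose F1 suspensions held no UMI, at their lower bounds.

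**Figure D2:**
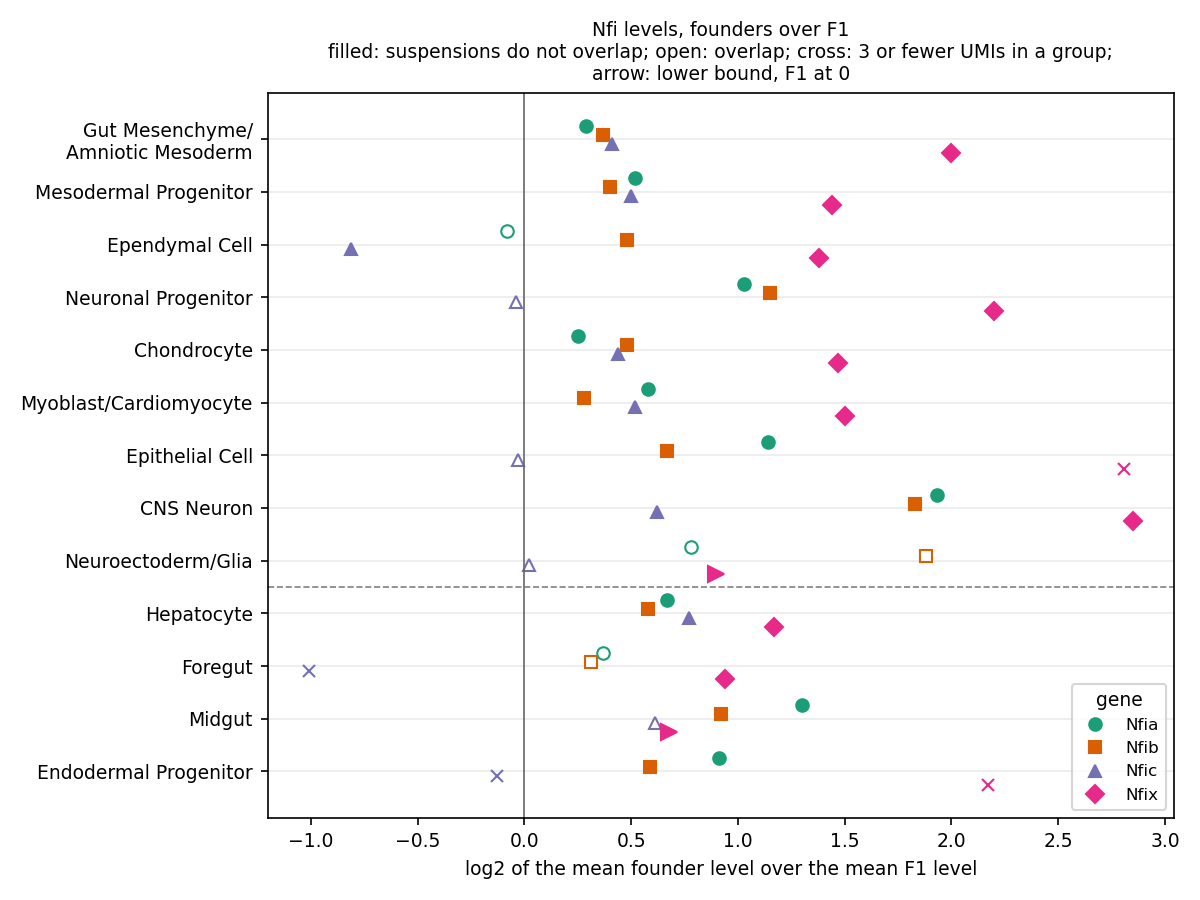
Log2 ratio of the mean founder level to the mean F1 level (x axis) of each Nfi gene in 13 cell types. Filled points mark types without overlap between the generations, open points types with overlap, crosses values with 3 or fewer UMIs in a group, and arrows lower bounds. Nfix lies at 2.20 in Neuronal Progenitor, to the right of the other 3 genes there, and Nfic in Ependymal Cell lies at -0.81.

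The edgeR quasi-likelihood test across all genes called 746 combinations at a Benjamini-Hochberg adjusted p under 0.05, 0.752% of all, with 0.492% higher and 0.26% lower in founders. Of the 52 Nfi combinations, 43 passed the filter on low counts, 13 of each for Nfia and Nfib, 9 for Nfic and 8 for Nfix. Of these 43, 13 were called higher in founders and 0 lower: 4 for Nfia, 5 for Nfib, 4 for Nfix and 0 for Nfic. By type, 3 of the members were called in Mesodermal Progenitor, where 0.723% of all genes were called higher, and 3 in Neuronal Progenitor, where 0.45% were. In Gut Mesenchyme/Amniotic Mesoderm 2 were called beside 1.03% of all genes, in CNS Neuron 2 beside 0.474%, in Midgut 2 beside 1.24%, and in Chondrocyte 1 beside 0.802%. Nothing is read from these counts, since the same contrast chose the genes.

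In Neuronal Progenitor, the dividing precursors of neurons and glia, 3 of the 4 genes stood higher in founders. Nfia was at 7.92 in F0_8 and 6.64 in F0_9 against 4 in F1_1 and 3.12 in F1_mix, a log2 ratio of 1.03. Nfib was at 6.99 and 6.79 against 3.13 and 3.06, a log2 ratio of 1.15. Nfix was at 0.678 and 0.501 against 0.136 and 0.12, from 130, 90, 31 and 30 UMIs, a log2 ratio of 2.20. For all 3 both founders lay above both F1 suspensions, while Nfic, from 17 to 24 UMIs per suspension, was at 0.0886 and 0.0947 against 0.0923 and 0.0963 and overlapped. The difference ran through the bulk of the cells: the median cell had 12.5 and 9.71 Nfi UMIs per 10000 in F0_8 and F0_9 against 5.49 and 3.93 in F1_1 and F1_mix, and the upper quartile was 21.5 and 20.4 against 9.97 and 9.66.

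In CNS Neuron all 4 genes stood higher in both founders. Nfia was at 5.37 and 3.62 against 0.893 and 1.47, and Nfib at 3 and 1.86 against 0.603 and 0.761, log2 ratios of 1.93 and 1.83. Nfic was at 0.327 and 0.194 against 0.16 and 0.177, with F0_8 well above the other 3 suspensions. Nfix was at 0.135 and 0.0847 against 0.00764 and 0.0229, from 19, 14, 1 and 4 UMIs. Its log2 ratio of 2.85 was 2.26 without F1_1 and 3.85 without F1_mix, and rests on a share of cells that was not above that of the red blood cells. The transcripts were unevenly held: the median neuron had 3.01, 1.55, 0 and 0.733 Nfi UMIs per 10000 in F0_8, F0_9, F1_1 and F1_mix. The 13, 16, 11 and 15 cells with the most Nfi UMIs, a count not scaled to the depth of the cell, held 56.4%, 64%, 69.3% and 67.2% of them.

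**Figure D3:**
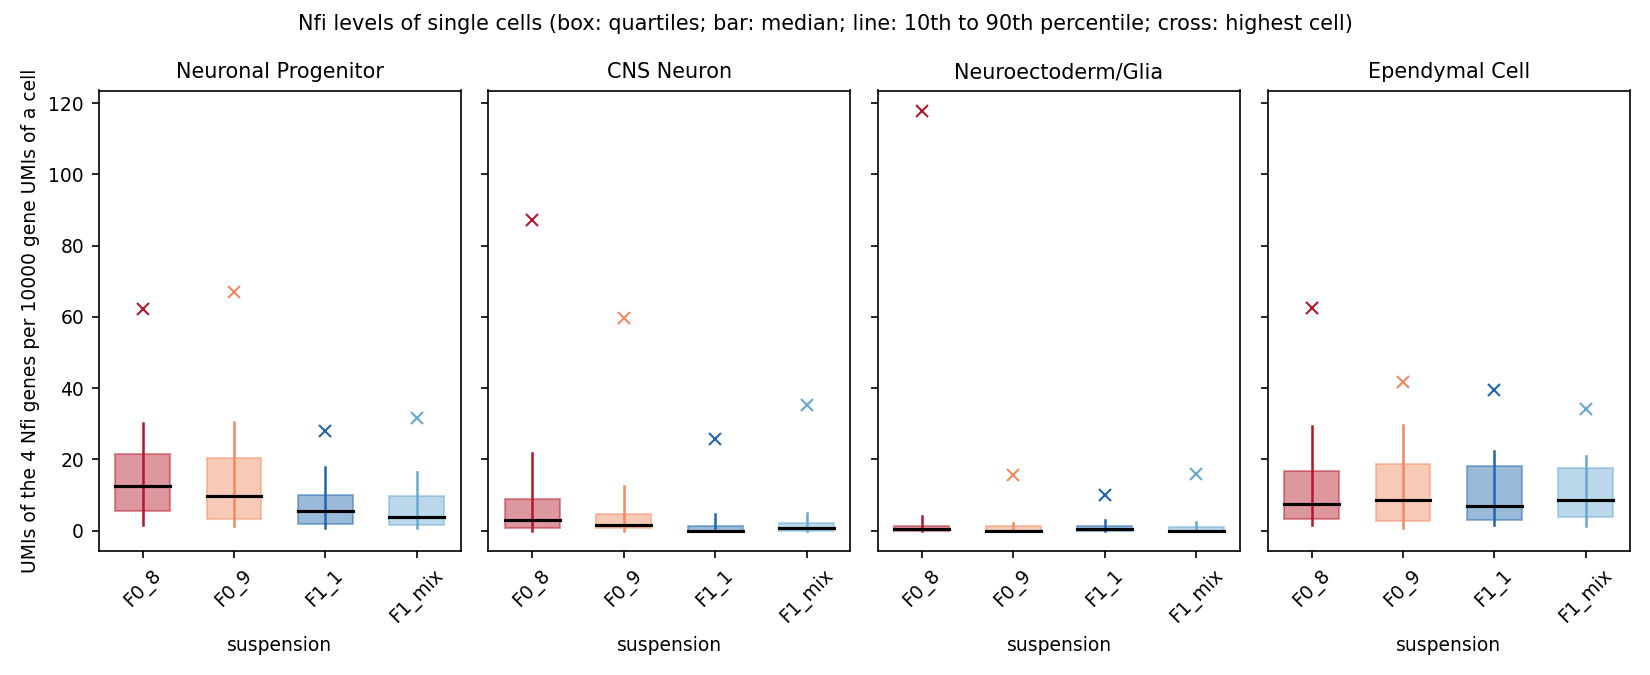
Summed UMIs of the 4 Nfi genes per 10000 gene UMIs of a cell (y axis) in 4 neural types by suspension (x axis), with boxes for quartiles, bars for medians, lines from the 10th to the 90th percentile and crosses for the highest cell. In Neuronal Progenitor the medians are 12.5, 9.71, 5.49 and 3.93, and in Neuroectoderm/Glia the cross of F0_8 stands at 117.7 while its median is 0.453.

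Cells with a UMI of Neurod2, Neurod6 or Tbr1, transcription factor genes of forebrain excitatory neurons, made up 27.8% and 21.2% of CNS Neuron in F0_8 and F0_9 against 7.27% and 8.97% in F1_1 and F1_mix. In Neuroectoderm/Glia they made up 18.9% and 8.61% against 10.1% and 7.41%, and in Neuronal Progenitor 6.12% and 2.24% against 2.67% and 4.22%, so that the generations overlapped in both. In CNS Neuron their summed Nfi level was 15.0 and 10.7 in the founders and 3.44 and 9.36 in F1. Without them, a choice made after the values were seen, the summed Nfi level of CNS Neuron was 6.12 and 4.13 against 1.52 and 1.63, compared with 8.84 and 5.77 against 1.66 and 2.43 in all cells. In Neuroectoderm/Glia the same step turned the direction, with 0.99 and 0.81 in founders against 1.32 and 1.31 in F1, compared with 5.14 and 1.12 against 1.27 and 1.49 in all cells. The part of these cells in the Nfi levels was not tested apart from these values, which come from the contrast that chose the genes.

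In Neuroectoderm/Glia F0_8 stood apart from the other founder. Nfia was at 2.37 in F0_8 and 0.614 in F0_9 against 0.808 and 0.926 in F1, and Nfib at 2.60 and 0.365 against 0.353 and 0.452, so that both genes overlapped. Of the 957 Nfi UMIs of F0_8 in this type, 723 were in 5 of its 164 cells, which had 42.3 to 117.7 Nfi UMIs per 10000 while the next highest cell had 16.8. These 5 cells had a median of 20361 gene UMIs against 11438 in the whole type, and whether they are doublets was not tested. Without these 5 cells Nfia fell to 0.637 and Nfib to 0.604 in F0_8, and the log2 ratio of founders to F1 went from 0.78 to -0.47 for Nfia and from 1.88 to 0.27 for Nfib. Without F0_8 altogether the ratios were -0.50 and -0.14. All 5 cells held UMIs of Neurod2, Neurod6, Tbr1, Bcl11b and Tcf4, with Neurod2 at 5.83 and Neurod6 at 5.37 per 10000 against 0.14 and 0.13 in the other 497 cells, and Fabp7, a radial glia gene, was in 3 of the 5 at 0.686 against 0.135. Sox10 was in 0 of the 5 and in 1 of the 497. Nfix had 17, 1, 0 and 0 UMIs in this type, at least 1.86-fold higher in founders against a floor of 3 counts per F1 suspension, a bound that rests on F0_8, since F0_9 (0.00579) lay below both F1 floors (0.0303 and 0.0219). Without the 5 cells the Nfix level of F0_8 was 0.00564. Nfic, at 0.0914, 0.139, 0.111 and 0.117, overlapped.

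In the 3 mesenchymal and skeletal types both founders stood higher for all 4 genes, with log2 ratios of 0.25 to 0.52 for Nfia, 0.37 to 0.48 for Nfib, 0.41 to 0.50 for Nfic and 1.44 to 2 for Nfix. In Gut Mesenchyme/Amniotic Mesoderm Nfia was at 7.82 and 6.78 against 5.95 and 5.99, and Nfib at 8.26 and 7.79 against 6.14 and 6.24. Nfic was at 0.642 and 0.607 against 0.473 and 0.468, and Nfix at 0.563 and 0.51 against 0.0788 and 0.189, from 185, 115, 11 and 40 UMIs. The log2 ratios were 0.29, 0.37, 0.41 and 2. For Nfix F1_1 lay below F1_mix, with counting intervals of 0.0393 to 0.141 and 0.135 to 0.257, and without F1_mix the log2 ratio was 2.77.

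In Mesodermal Progenitor Nfia was at 6.73 and 6.06 against 4.31 and 4.58, and Nfib at 6.17 and 5.77 against 4.57 and 4.51. Nfic was at 0.471 and 0.479 against 0.341 and 0.329, and Nfix at 0.559 and 0.456 against 0.174 and 0.2. The groups did not overlap for any of the 4 genes. In Chondrocyte both founders again lay above, with Nfia at 4.99 and 4.32 against 3.85 and 3.99 and Nfix at 0.425 and 0.413 against 0.154 and 0.15. Nfib in Chondrocyte was at 5.29 and 5.19 against 3.17 and 4.31, and Nfic at 0.658 and 0.696 against 0.41 and 0.587, with F1_1 the lowest for both.

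In Myoblast/Cardiomyocyte, which joins skeletal and heart muscle precursors, Nfia was at 3.27 and 3.5 against 2.14 and 2.39, Nfib at 2.74 and 2.85 against 2.28 and 2.34, Nfic at 0.251 and 0.236 against 0.17 and 0.169, and Nfix at 0.218 and 0.16 against 0.0584 and 0.0754. None of the 4 overlapped. In Epithelial Cell Nfia was at 2.67 and 1.76 against 1.19 and 0.824, and Nfib at 5.02 and 4.24 against 3.1 and 2.73. Nfic overlapped there with 4 to 15 UMIs per suspension, and Nfix had 12 UMIs in founders and 2 in F1, a pooled ratio of 8.45 with a counting interval of 1.88 to 77.8.

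Ependymal Cell was, of the 13 types, the one in which a gene stood lower in both founders. Nfia was at 7.15 and 5.86 against 6.58 and 7.14, a log2 ratio of -0.08 that was 0.06 without F0_9, and overlapped. Nfib was at 4.72 and 3.76 against 3.26 and 2.83, and Nfix, from 14, 10, 5 and 4 UMIs, at 0.285 and 0.236 against 0.118 and 0.082, both higher in founders. Nfic was lower in both founders, at 0.265 and 0.284 against 0.591 and 0.369, a log2 ratio of -0.81. These levels of Nfic rest on 13, 12, 25 and 18 UMIs, and the counting intervals of F0_9 (0.147 to 0.496) and F1_mix (0.219 to 0.583) overlapped. The type held 32 to 40 cells per suspension.

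In the shallow types the founders were higher for Nfia in 3 of 4 types, for Nfib in 3 of 4, for Nfic in 1 of 4 and for Nfix in 4 of 4. In Hepatocyte Nfia was at 18.3 and 18.9 against 11.4 and 12, Nfib at 14.3 and 15.1 against 10.4 and 9.37, and Nfix at 0.737 and 0.723 against 0.355 and 0.294. In Midgut Nfia was at 10.6 and 13.1 against 4.89 and 4.75. Nfib there was at 4.67 and 1.99 against 1.57 and 1.95, from 51, 9, 19 and 25 UMIs, and its log2 ratio went from 0.92 to 0.18 without F0_8. In the same type Nfix had 6 and 1 UMIs against 0 and 0 and was at least 1.6-fold higher against the same floor, again through F0_8, since F0_9 (0.221) lay below both F1 floors (0.249 and 0.234). In Foregut F1_mix reached 13.7 for Nfia, above the 13.2 of F0_8, and 10.7 for Nfib, above the 9.05 of F0_9, so that both genes overlapped. In Endodermal Progenitor Nfia was at 4 and 6.91 against 2.49 and 3.33, and Nfix had 10 UMIs in founders and 3 in F1, a pooled ratio of 3.82 with a counting interval of 0.982 to 21.6. Nfic in Foregut (2 and 5 UMIs) and in Endodermal Progenitor (3 and 4 UMIs) was too sparse to rank the groups.

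The types left out of the contrast held fewer than 20 cells in a suspension. In Hematoendothelial Progenitor/Endothelium Nfia was at 1.44, 0.731, 1.07 and 2.05 in F0_8, F0_9, F1_1 and F1_mix, Nfib at 1.9, 0.832, 0.657 and 1.38, and Nfic at 0.523, 0.406, 0.415 and 0.662. The suspensions of both generations were interspersed there. In Erythroblast the summed Nfi level was 0.59, 0.243, 0.709 and 0.361, again interspersed. In Erythrocyte, with 9 to 23 cells, it was 0.758 and 0.351 in founders against 0.0652 and 0.222 in F1, from 18, 18, 2 and 11 UMIs, most of them of Nfix in the founders.

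F1_mix could be divided by Y-linked transcripts, which were found in 48.6% of its deep-type cells of at least 5000 gene UMIs, against 90.5% in F0_8, 3.12% in F0_9 and 3.33% in F1_1. In Neuronal Progenitor the cells of F1_mix with and without a Y-linked UMI had 3.77 and 2.65 for Nfia, 3.78 and 2.55 for Nfib, and 0.164 and 0.0894 for Nfix. All 6 values lay below both founders. In CNS Neuron they had 1.15 and 1.72 for Nfia and 0.529 and 0.956 for Nfib, also below both founders. Over the 7 deep types with 20 or more such cells on each side, both values lay below both founders in 22 of 28 combinations: 5 of 7 for Nfia, 6 of 7 for Nfib, 4 of 7 for Nfic and 7 of 7 for Nfix. Those that did not were Nfia, Nfib and Nfic in Neuroectoderm/Glia, Nfic in CNS Neuron and Neuronal Progenitor, and Nfia in Chondrocyte. In Chondrocyte the cells without a Y-linked UMI had 4.37 for Nfia against 4.32 in F0_9. The 7 for Nfix include Neuroectoderm/Glia, where F0_9 held 1 UMI. The division is not exact, since 90.5% and not all of the cells of F0_8 held a Y-linked UMI. The share over all genes was not computed for this division. Nothing is read from these counts, since the same contrast chose the genes.

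The other genes of the neural timing programme were taken from lists written with earlier results of these data known, and for them the edgeR quasi-likelihood test across all genes gives the p-values, adjusted by the method of Benjamini and Hochberg over all genes of a cell type. The neuronal temporal code list holds transcription factor genes whose expression follows neuronal birth date, early (Onecut1 to Onecut3, Pou2f2, Zfhx2 to Zfhx4) and late (Neurod2, Neurod6, Tcf4). Over 70 combinations tested, 7 rose in founders, 3 fell and 60 did not pass the test. The median log2 fold change was 0.12, against 0.00 over all genes, and the 7 were of late members (Neurod2, Neurod6, Tcf4) and the 3 of early ones (Onecut1, Onecut2, Pou2f2). Both founders lay above both F1 suspensions in 23 of the 70 and below in 20. Early members did not all lie lower: in Gut Mesenchyme/Amniotic Mesoderm, Zfhx3 and Zfhx4, named after their values were seen, had log2 fold changes of 0.38 and 0.29 that did not pass (adjusted p = 0.0889 and 0.0506 by edgeR).

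**Figure D4:**
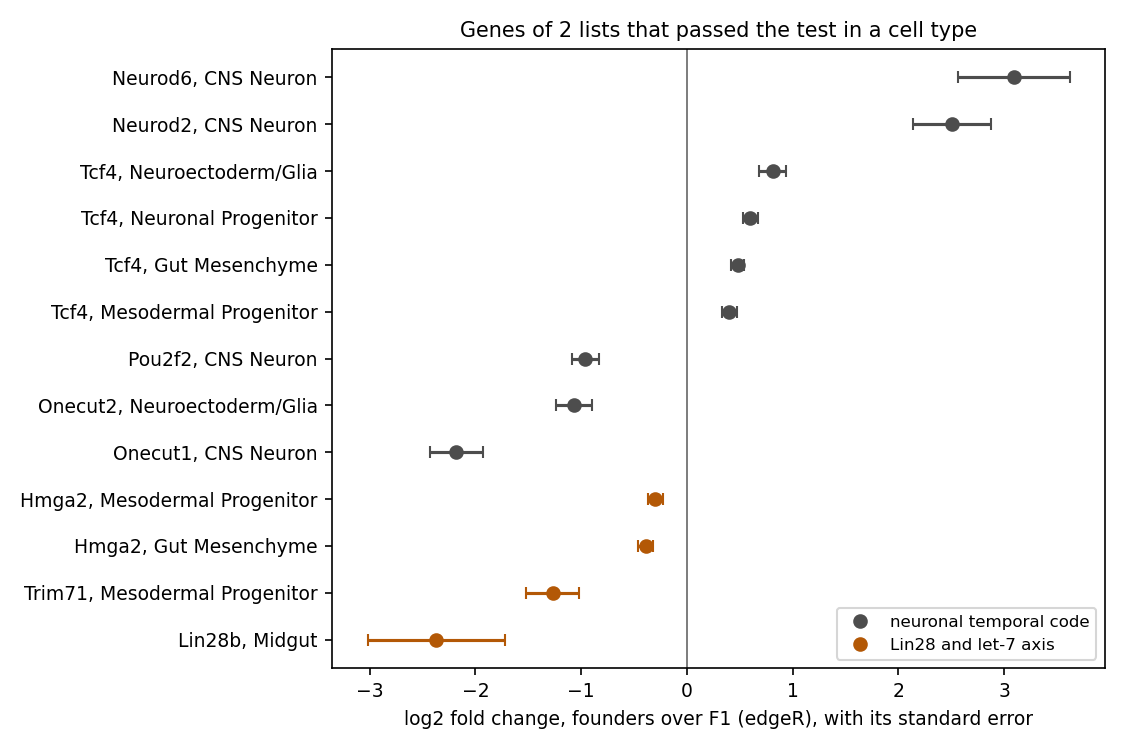
Log2 fold change of founders over F1 from edgeR with its standard error (x axis) for the genes of the neuronal temporal code and of the Lin28 and let-7 axis that passed the test, each with its cell type. Late members of the code lie to the right, Neurod6 in CNS Neuron at 3.09, early members to the left, Onecut1 in CNS Neuron at -2.18, and the genes of the Lin28 and let-7 axis to the left of 0; Neurod6 in Neuroectoderm/Glia, with 1 UMI in F1, is left out.

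In CNS Neuron the late gene Neurod6 was at 0.398 and 0.181 in founders against 0.0153 and 0.0458 in F1, a log2 fold change of 3.09 ± 0.53 (SE, adjusted p = 0.0285 by edgeR). Neurod2 was at 0.327 and 0.254 against 0.0687 and 0.0344 (2.51 ± 0.37, adjusted p = 0.012). The early gene Onecut1, a marker of first-born neurons, was at 0.114 and 0.0968 against 0.504 and 0.447 (-2.18 ± 0.25, adjusted p = 0.00334), and Pou2f2 at 1.85 and 2.29 against 4.42 and 3.61 (-0.96 ± 0.13, adjusted p = 0.00713). In each of these 4 genes both founders lay on the same side of both F1 suspensions. Without F0_8 none of the 4 passed the test, while each did without F0_9, F1_1 or F1_mix.

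Tcf4, a widely expressed partner of proneural factors, rose in 4 types by edgeR: in Neuronal Progenitor it was at 9.6 and 8.73 against 6.24 and 5.56 (log2 fold change 0.60 ± 0.07, adjusted p = 0.0198), and it also rose in Gut Mesenchyme/Amniotic Mesoderm (0.48 ± 0.06, adjusted p = 0.00349), Mesodermal Progenitor (0.40 ± 0.07, adjusted p = 0.0172) and Neuroectoderm/Glia (0.81 ± 0.13, adjusted p = 0.0401). In Neuroectoderm/Glia Onecut2 was at 1.29 and 1.95 against 3.39 and 3.38 (-1.07 ± 0.17, adjusted p = 0.0341 by edgeR). Neurod6 had 93, 29, 0 and 1 UMIs there in F0_8, F0_9, F1_1 and F1_mix and was called higher (adjusted p = 0.0425 by edgeR). Of the F0_8 UMIs in this type, the 5 cells with the highest Nfi levels held 47 of 93 for Neurod6 and 130 of 703 for Tcf4. The fits were not repeated without these 5 cells. Without F1_1 or without F1_mix the 3 calls in this type were lost, and that of Neurod6 also among cells with under 5% mitochondrial UMIs. Without F0_8 the calls of Tcf4 in the other 3 types were lost, and without F0_9 that in Mesodermal Progenitor.

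The Lin28 and let-7 axis is an RNA-binding and microRNA circuit whose genes decline as embryonic tissues mature. Of 83 combinations of its 8 genes, 4 fell in founders, 0 rose and 79 did not pass the edgeR test, while 30 (36.1%) had an unadjusted p under 0.05, against 10.2% of all combinations. This share was also above 10.2% in the other lists with calls, from 16.7% for the globin genes to 44.3% for the temporal code. Both founders lay below both F1 suspensions in 52 of the 83 and above in 5, beside 19.8% and 20.8% of all combinations, and the median log2 fold change was -0.31. Hmga2, a chromatin gene and let-7 target, was at 7.98 and 7.08 against 9.61 and 9.91 in Gut Mesenchyme/Amniotic Mesoderm (-0.39 ± 0.07, adjusted p = 0.0165) and at 8.06 and 7.81 against 9.27 and 10.2 in Mesodermal Progenitor (-0.30 ± 0.07, adjusted p = 0.0431). Trim71, which encodes an RNA-binding ubiquitin ligase, fell in Mesodermal Progenitor from 0.288 and 0.256 in F1 to 0.0916 and 0.139 (-1.27 ± 0.25, adjusted p = 0.0299). Lin28b, which blocks let-7 maturation, had 4 and 0 UMIs against 11 and 28 in Midgut (-2.37 ± 0.65, adjusted p = 0.023).

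Among these 4 calls, DESeq2 did not make those of Hmga2 and Trim71 in Mesodermal Progenitor nor that of Lin28b in Midgut, which was also lost without the filter on low counts. Without F0_8, 3 were lost (Hmga2 and Trim71 in Mesodermal Progenitor, Lin28b in Midgut), without F0_9 also 3 (both of Hmga2, Lin28b in Midgut), and without F1_mix that of Hmga2 in Mesodermal Progenitor. Lin28b lay lower in both founders also in Neuronal Progenitor, at 0.813 and 0.869 against 1.02 and 1.21, where it did not pass (log2 fold change -0.44, adjusted p = 0.181 by edgeR). In Neuroectoderm/Glia, where Nfia and Nfib overlapped between the generations, Lin28b was at 1.15 and 1.14 against 1.1 and 1.13 and Hmga2 at 0.296 and 0.237 against 0.172 and 0.204, neither of which passed (log2 fold changes 0.03 and 0.48). Of the other 6 genes of the axis there, both founders lay lower for 5, among them Lin28a at 0.0376 and 0.0521 against 0.172 and 0.146 (-1.80, adjusted p = 0.0783 by edgeR), and higher for Igf2bp3 (0.12).

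Of 84 combinations of 12 tested genes reported as NFI targets, 1 was called by edgeR, a share near that of all combinations. It was Sox9, a glial and cartilage regulator, which was at 3.88 and 3.89 against 2.24 and 2.32 in Gut Mesenchyme/Amniotic Mesoderm (log2 fold change 0.75 ± 0.07, adjusted p = 0.00177). Both founders lay above both F1 suspensions in 15 of the 84 and below in 25, the median was 0.02, and 23 (27.4%) had an unadjusted p under 0.05, against 10.2% of all combinations. Of 80 combinations of gliogenic and radial glia genes, 2 rose and 1 fell. The 2 were Sox9, as above, and Hopx, a gene of outer radial glia and other stem cells, which was at 0.355 and 0.256 against 0.022 and 0.0843 in Neuronal Progenitor (2.45 ± 0.43, adjusted p = 0.0467). Slc1a2, a glial glutamate transporter gene, fell in CNS Neuron (-0.56 ± 0.11, adjusted p = 0.0483). The call of Hopx was lost without F0_8, and that of Slc1a2 in 6 of 10 alternatives (without F0_8, without F1_1, with DESeq2, with RLE size factors and under both limits on cells).

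Of 93 combinations of neuronal differentiation genes, 2 rose by edgeR and 0 fell. Syt1, a synaptic vesicle gene, was at 0.965 and 0.797 against 0.457 and 0.401 in Neuronal Progenitor (log2 fold change 1 ± 0.15, adjusted p = 0.0278), a call lost without F0_8 or without F1_mix. Stmn2, a neuronal microtubule gene, was at 0.584 and 0.483 against 0.0573 and 0.0945 in Gut Mesenchyme/Amniotic Mesoderm (2.74 ± 0.24, adjusted p = 0.00164). The source of this neuronal transcript in mesenchyme was not tested. Of 72 combinations of neural progenitor genes, 1 rose and 3 fell. In Neuroectoderm/Glia Sox2 rose (1.68 ± 0.27, adjusted p = 0.0354) and Vim fell (-1.18 ± 0.14, adjusted p = 0.0119). Vim also fell in Chondrocyte (-0.50 ± 0.10, adjusted p = 0.0255), and Nes in Foregut (-1.55 ± 0.40, adjusted p = 0.0236). The call of Sox2 was lost without F1_1, without F1_mix and with DESeq2, that of Vim in Chondrocyte without F0_8, F1_1 or the filter on low counts, and that of Nes without F0_8, F1_1, F1_mix or the filter and with DESeq2.

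Genes that mark handling and other cells were measured beside these results. Of 69 combinations of dissociation stress genes, 4 rose by edgeR and 0 fell, with a median log2 fold change of 0.24. Both founders lay above both F1 suspensions in 32 of the 69 and below in 10, beside 20.8% and 19.8% of all combinations, and 39.1% had an unadjusted p under 0.05. By edgeR, Egr1 and Jun rose in Gut Mesenchyme/Amniotic Mesoderm (0.83 ± 0.11, adjusted p = 0.00666, and 0.47 ± 0.07, adjusted p = 0.00938). Egr1 and Fos rose in Mesodermal Progenitor (1.25 ± 0.14, adjusted p = 0.00105, and 0.54 ± 0.11, adjusted p = 0.0299). All 4 Nfi genes were also higher in both founders in these types. The same held in CNS Neuron, Chondrocyte and Myoblast/Cardiomyocyte, where no stress gene was called. Without F0_8 only the call of Egr1 in Mesodermal Progenitor held among these 4 stress gene calls, and that of Fos was also not made by DESeq2. Of 66 combinations of globin genes 1 rose, Hbb-bs in Foregut (2.82 ± 0.51, adjusted p = 0.000128), which was lost without F0_8 and with DESeq2. The founders and F1 overlapped in all 39 combinations of Y-linked genes. The part of dissociation, of the sex of the embryos and of small differences in developmental age in the Nfi levels was not tested.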

How the data were processed

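Gene expression was read from the gene matrices of 4 suspensions run as 1 library. The authors deposited UMI counts per gene and cell from Cell Ranger (7.2.0 per the file headers, an earlier release in the methods text), aligned to GRCm38 (mm10) with EGFP added. Strand setting was not given in the sources used here. The suspension and cell type of each cell came from the authors' cell table, from which doublets had been removed before deposit. No further doublet caller or ambient RNA correction was run, and 19 of its columns were not used. Suspensions were grouped as founders (F0_8, F0_9) and F1 (F1_1, F1_mix) from the series description. The oligo library entered no comparison.

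Counts were summed per suspension and cell type, with exact Poisson 95% intervals for levels and exact Clopper-Pearson intervals for shares. For the 13 types that held at least 20 cells per suspension, founders were compared with F1 by the edgeR 4.0.16 quasi-likelihood test (filterByExpr, TMM, no block, Benjamini-Hochberg adjustment over all genes of a type), with R 4.3.3. DESeq2 1.42.0 was an alternative. The fits were tested on simulated data. Shallow types were those whose median depth, multiplied by 3, stayed below the median of all cells. The likeness of patterns was the Pearson correlation of log2(mean level + 0.1) over deep types, among genes with a level of 0.5 or more in 1 deep type. Python 3.11.15 gave the other values, through scipy 1.17.1, pandas 2.3.3 and numpy 2.4.6, and matplotlib 3.10.9 drew the plots.

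The members, the gene lists and the markers were chosen with earlier results of these data known. Named were the 4 members, at most 8 called genes per list, the 5 genes most like each member, and the Y-linked genes only jointly. Neurod2, Neurod6 and Tbr1 as markers of forebrain neurons, and Bcl11b and Sox10 beside them, were chosen after the values were seen.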

Additional observations from a re-analysis of the deposited data

Results flagged for a closer look

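Nfic in Ependymal Cell was singled out because its direction was opposite to that in 5 other deep types. Both founders lay below both F1 suspensions there, with a log2 ratio of -0.81, while both founders lay above both F1 suspensions in Gut Mesenchyme/Amniotic Mesoderm, Mesodermal Progenitor, Chondrocyte, Myoblast/Cardiomyocyte and CNS Neuron. The difference between these types was not tested.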

How the results depend on the processing

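No paired analysis was possible because the suspensions came from different embryos and share no replicate number in the labels. The count of 40 Nfi combinations with both founders above both F1 suspensions was within 1.5 times under every alternative run. It was 39 to 44 of 52, and 29 of 36 where cell limits removed the shallow types. With 1 suspension left out, this count could only stay or rise, since fewer levels were compared. Nothing is read from it, because the same contrast chose the genes. The median log2 ratio of the members, 0.62 with all cells, was 0.69 outside mitochondrial genes, 0.68 with TMM scaling, 0.53 with only the F1_mix cells that held a Y-linked UMI, and 0.54 to 0.70 when 1 suspension was left out. No value changed from a called direction to the opposite one. Of 489 recomputed ratios of single members, 447 moved by less than their spread and 42 by more.

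The 746 calls over all genes became 434 with DESeq2, 3154 without the filter on low counts, and 511 to 1585 without 1 suspension. The 28 calls of listed genes became 104 without the filter and 22 to 64 without 1 suspension. A group left with 1 suspension was assumed to vary like the other. Of the 28, DESeq2 did not make 8, and 19 were lost without F0_8, 4 without F0_9, 7 without F1_1 and 7 without F1_mix. The share of cells with an Nfi UMI, 73.4% at 5000 UMIs, was 84.5% unthinned, 57.2% at 2000 and 41.7% at 1000. Of the 20 genes most like the members, 12 were kept with a pseudocount of 0.01 or of 0.5, 3 over the 13 types with enough cells, 3 with Spearman correlations, and 11 to 15 without 1 suspension. The 4 shallow types could not be fitted under the limits of 5% mitochondrial UMIs or of 5000 gene UMIs. Nfic and Nfix are limited by depth, since 9 of their 26 combinations were filtered out for low counts.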
